A study of Mus musculus with 10 samples.

Results

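Interferon-responsive microglia are described here as they occurred in single cell RNA sequencing of sorted mouse microglia. A cell was counted as interferon-responsive when it carried at least 3 UMIs (unique molecular identifiers, each a counted transcript), and at least 0.1% of all its UMIs, summed over *Ifit1*, *Ifit2*, *Ifit3*, *Isg15* and *Rsad2*. This rule took 239 of 19059 cells, or 1.25%. Because measured values chose these cells, the levels of the 5 rule genes are given as a description and were not tested. The cells of the same library with no UMI of the 5 genes, 14973 in all, are called comparison cells, and the 3847 cells between the 2 classes entered no test.

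All cells came from untreated C57BL/6 mice and were sorted as live, CD11b high and CD45 intermediate before droplet capture and 3' sequencing. The 5 groups, of 2 libraries each, were freshly isolated microglia of adult brain, *in vitro* microglia harvested from the medium of mixed glial cultures after 3 weeks, and microglia of cultured brain slices after 1 day, 1 week or 3 weeks. The mixed glial cultures and the slices were prepared from pups in the first days after birth, so age at dissection differed between adult and cultured groups. Slices were pooled where needed, and whether a library holds 1 animal or several is not stated. Both kinds of culture were grown in media with horse serum. The labels assign the libraries to 2 studies, the smaller of which holds replicate 1 of adult brain and of the 3 week slices. Cells per library ran from 61 to 3799, total UMIs from 385373 to 39689540, and median UMIs per cell lay between 1858 (the second adult library) and 13966 (the second *in vitro* library). Of the barcode sequences, 226 occurred in more than 1 library, and 8 of these belonged to an interferon-responsive cell.

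Type I interferons bind a receptor whose kinases activate STAT2. With IRF9 this becomes part of a complex that binds the interferon-stimulated response element (ISRE) in gene promoters, while the signal of interferon gamma acts mainly through the gamma-activated site (GAS). The genes so induced encode antiviral effectors, sensors of foreign nucleic acid, chemokines and the machinery of antigen presentation, together with feedback inhibitors that end the signal. Of the rule genes, *Ifit1*, *Ifit2* and *Ifit3* encode proteins that bind viral RNA, *Isg15* encodes a ubiquitin-like modifier, and *Rsad2* encodes viperin, an enzyme that makes a chain-terminating nucleotide. Microglia, the macrophages of the brain parenchyma, respond to interferon and can produce type I interferon.

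The promoters of the rule genes were read from RefSeq (GRCm38.p6) as 250 bases before to 50 bases after the annotated start, and searched on both strands for the core of the ISRE, taken as GAAA, any 2 bases and GAAA again, and for TTCNNNGAA, the GAS. The stretches below show the ISRE matches of 4 rule genes and of 4 further genes to which the results return, each written 5′ to 3′ along the gene with the matches in capitals. A match on the opposite strand reads TTTC, any 2 bases and TTTC, and matches that overlap are joined. *Ifit1* lay at chr19:34640760-34640838 and *Ifit3* at chr19:34583348-34583441 on the plus strand, *Isg15* at chr4:156200850-156200921 and *Rsad2* at chr12:26456538-26456597 on the minus strand. *Cxcl10* lay at chr5:92349068-92349127 on the minus strand, *Gbp2* at chr3:142620579-142620638 on the plus strand, *Bst2* at chr8:71537562-71537627 on the minus strand and *B2m* at chr2:122147523-122147582 on the plus strand. All 8 stretches lie before the annotated start.
Ifit1: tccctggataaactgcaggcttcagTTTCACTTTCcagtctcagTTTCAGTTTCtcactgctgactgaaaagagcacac
Ifit3: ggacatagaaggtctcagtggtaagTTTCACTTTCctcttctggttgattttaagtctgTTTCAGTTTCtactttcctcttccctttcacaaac
Isg15: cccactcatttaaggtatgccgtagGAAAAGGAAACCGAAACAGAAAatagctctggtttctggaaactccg
Rsad2: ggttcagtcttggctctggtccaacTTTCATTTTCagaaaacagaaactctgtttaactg
Cxcl10: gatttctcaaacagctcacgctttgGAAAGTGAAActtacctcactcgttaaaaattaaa
Gbp2: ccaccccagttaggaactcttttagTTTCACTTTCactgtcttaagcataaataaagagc
Bst2: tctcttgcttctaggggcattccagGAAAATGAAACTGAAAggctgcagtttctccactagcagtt
B2m: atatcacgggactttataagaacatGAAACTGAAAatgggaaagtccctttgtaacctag

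*Ifit1* and *Ifit3* each held 2 separate ISRE matches, *Isg15* held 3 that overlapped, and *Rsad2* held 1. Neither annotated start of *Ifit2* had an ISRE match in its window, and 1 of the 2 windows held a GAS match. Over the whole RefSeq table, 1079 of 27025 genes (3.99%) held an ISRE match in a window of this length, and 2582 (9.55%) held a GAS match. A match describes the letters of a window and does not show a bound site.

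The share of interferon-responsive cells differed between groups and, in adult brain, also between replicates. Adult replicate 1 held 50 among 3799 cells (1.32%, 95% exact binomial interval 0.978 to 1.73%), and adult replicate 2 held 14 of 3527 (0.397%, 0.217 to 0.665%). The adult replicates therefore differed beyond counting error. Replicate 2 was also the shallower library, and the 2 carry different study labels. *In vitro* replicates 1 and 2 held 41 of 2417 (1.7%, 1.22 to 2.29%) and 66 of 2682 (2.46%, 1.91 to 3.12%). Slices after 1 day held 14 of 518 (2.7%, 1.49 to 4.49%) and 30 of 1014 (2.96%, 2 to 4.2%). Slices after 3 weeks held 6 of 1153 (0.52%, 0.191 to 1.13%) and 18 of 3740 (0.481%, 0.285 to 0.76%). No such cell was seen in the 1 week slices, among 148 and 61 cells, which allows shares of up to 2.03% and 4.92% by 3 counts of the total, and up to 2.46% and 5.87% by the exact interval, so a share like that of the 3 week slices was not detectable at these numbers of cells. The group means were 2.83 ± 0.181% after 1 day in slices, 2.08 ± 0.541% *in vitro*, 0.857 ± 0.65% in adult brain and 0.501 ± 0.0276% after 3 weeks in slices (SD, n = 2 libraries each). The mean of the 1 day slices exceeded that of *in vitro* cells by more than the SD of either, and the means of adult brain and 3 week slices lay within the adult SD of each other. These shares were not tested, since the rule used the same counts and 2 libraries against 2 cannot pass an exact test, and the intervals cover counting error only.

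**Figure D1:**
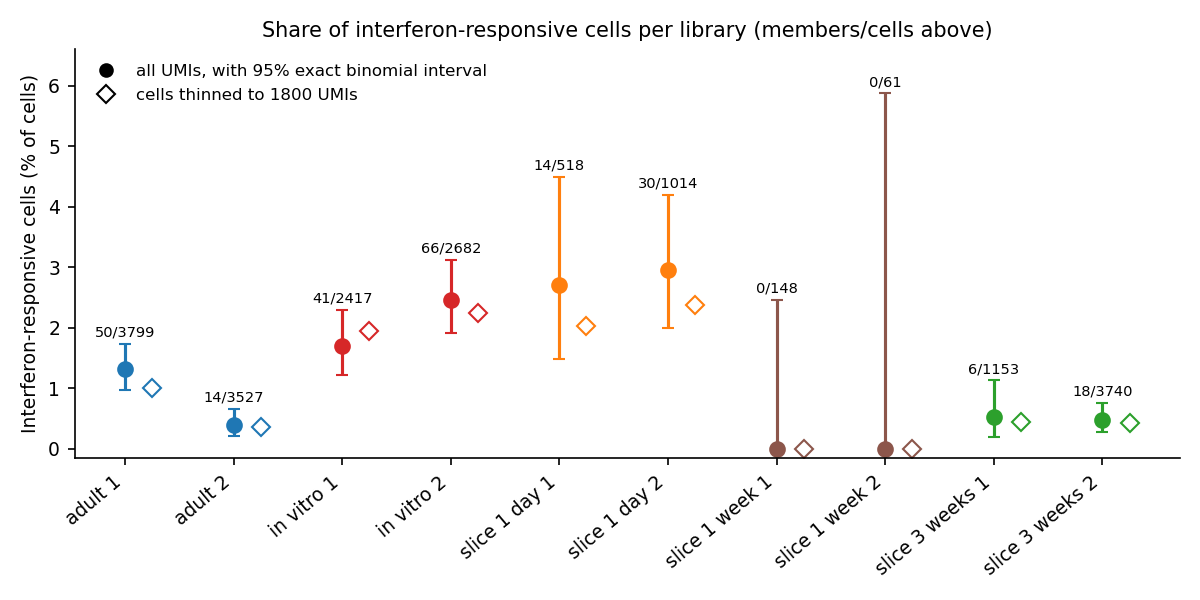
Share of interferon-responsive cells in each library, in percent of cells, with 95% exact binomial intervals (filled circles) and the share among cells thinned to 1800 UMIs (open diamonds). The number of interferon-responsive cells and of all cells stands above each interval, and the 1 day slices and *in vitro* libraries sit above the 3 week slices and adult replicate 2 on both measures.

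The rule asks for 3 UMIs in shallow cells and for 0.1% of many UMIs in deep ones, so the shares were also taken at equal depth. When every cell was thinned to 1800 UMIs, leaving out 2031 adult, 26 slice 1 day, 18 slice 1 week and 74 slice 3 week cells with fewer, the group means were 2.2% for 1 day slices, 2.09% *in vitro*, 0.685% in adult brain and 0.438% for 3 week slices. At that depth the 1 day slices and *in vitro* means lay within the SD of each other, and adult replicates 1 and 2 stood at 1% and 0.367%. The summed level of the 5 genes over all cells of a library, which needs no threshold, was 161 ± 31.8 CPM after 1 day (SD, n = 2 libraries each, CPM being counts-per-million of the summed UMIs), 133 ± 1.72 CPM *in vitro*, 71.7 ± 49 CPM in adult brain, 49.4 ± 2.92 CPM after 3 weeks and 21.2 ± 10.4 CPM after 1 week. In the libraries that held any, the interferon-responsive cells carried between 26.5% of these UMIs, in slice 3 weeks replicate 1, and 79.7%, in slice 1 day replicate 2.

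Cells near the limits of the rule were of different kinds in different groups. Only adult cells, 6 of them, qualified with exactly 3 UMIs, and 34 cells lay just inside the other limit, below 0.12%. Just outside it were 849 cells with 3 or more UMIs but under 0.1%, of which 732 were *in vitro* cells, and the highest of them reached 0.0997%. Only 3 cells, all adult, failed for having 2 UMIs despite a share of at least 0.1%, the highest of these at 0.146%, and 2348 cells held a single UMI. The *in vitro* share accordingly ran from 0.89% under a stricter rule of 5 UMIs and 0.2% to 5.54% under a looser rule of 2 UMIs and 0.05%, whereas the 1 day slices ran from 1.81% to 3.95%.

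Within the interferon-responsive cells, *Isg15* and *Ifit3* carried most of the signal in most libraries. All 5 genes were seen in 76 of the 239 cells (31.8%), 4 in 58, 3 in 60, 2 in 38 and only 1 in 7. The median cell had 0.218% of its UMIs in the 5 genes, with a range of 0.1 to 2.45%, and a median of 17 such UMIs with a highest count of 263. *Ifit3* was the most abundant in adult brain, at 1600 and 1950 CPM in the summed interferon-responsive cells, and in the 3 week slices, at 1310 and 1620 CPM. *Isg15* led in the 1 day slices, at 1640 and 2540 CPM, where *Ifit3* reached 562 and 555 CPM. The *in vitro* cells had the 2 genes nearly level, with *Ifit3* at 899 and 959 CPM and *Isg15* at 858 and 776 CPM. *Rsad2* ranged from 96.8 CPM in slice 3 weeks replicate 1, with 6 cells, to 880 CPM in slice 1 day replicate 2.

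To see whether the 5 genes marked the same cells, each was left out in turn and the cells were chosen on the other 4. *Isg15* was then found in 91.6% of 143 chosen cells, against 10.5% of cells with none of the other 4 transcripts. *Ifit3* was found in 85% of 173 against 3.7%, *Ifit1* in 70.2% of 215 against 1.11%, *Ifit2* in 56.5% of 223 against 0.874% and *Rsad2* in 47.4% of 230 against 1.16%. The chosen cells pooled over libraries were deeper, with median UMIs of 8033 to 8844 against 3926 to 4247, and a larger part of them came from *in vitro* libraries. Within *in vitro* replicate 2, where the medians were 12409 and 13312.5, *Ifit1* was found in 82.5% of 57 chosen cells against 3.45%. The cells chosen without *Ifit1* were also the shallower class in *in vitro* replicate 1 (11612.5 against 11783) and slice 1 day replicate 2 (7200 against 7831). In the other libraries with chosen cells, such as adult replicate 1 with medians of 3818 and 3225, they were the deeper class.

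The sorted gate can hold other cells, so marker lists of 10 cell types were read in the 7 libraries with at least 10 interferon-responsive cells. All 8 microglial markers had UMIs in these cells, with a summed level of 3000 to 35300 CPM against 3140 to 39800 CPM in comparison cells. *Sall1* and *Siglech* were at 0 in 2 and 3 of the 7 libraries, all of them cultures or 1 day slices, where comparison cells held at most 49.3 CPM of either. Cultures and 1 day slices also carried markers of other types. When every cell with at least 3 UMIs of any other list was left out, 1 and 0 interferon-responsive cells remained *in vitro* and 2 and 0 in the 1 day slices, against 39 and 14 in adult brain. The cut fell on all classes of cells there. Among the cells left, interferon-responsive cells were 1.27% in *in vitro* replicate 1 (1.7% before) and 1.94% in slice 1 day replicate 1 (2.7% before). Slice 1 day replicate 2 kept no cell of any class. The counts therefore do not set interferon-responsive cells apart from the others. In the 1 day slices 7 of 44 interferon-responsive cells had at least 2% of their UMIs in 8 neutrophil markers, 14.3% and 16.7% of those cells in the 2 replicates against 13.7% and 11.4% of comparison cells. *S100a8* alone stood at 3040 and 7990 CPM there, against 5880 and 12200 CPM in comparison cells. Without these cells the mean share after 1 day was 2.71%.

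Border macrophage markers were found mostly in cultures and 1 day slices. *Mrc1* was at 445 and 365 CPM in *in vitro* interferon-responsive cells against 334 and 293 CPM in comparison cells, and *Pf4* at 2690 CPM in slice 1 day replicate 1 against 201 CPM, but at 164 CPM against 224 CPM in replicate 2. The whole list was higher in interferon-responsive cells in 2 of 7 libraries. *In vitro* it summed to 2590 and 2120 CPM against 2260 and 2140 CPM, beside 4320 and 3670 CPM for the microglial list. *Cd163* was at 0 in all 7 libraries. The oligodendrocyte list was higher in interferon-responsive cells in 7 of 7 libraries, at 70.2 to 279 CPM against 46.1 to 155 CPM, which was mostly *Cnp*, while *Mog* was at 0. Monocyte markers summed to 0 to 100 CPM with *Ccr2* and *Ear2* at 0. In adult brain they were higher in interferon-responsive cells, at 84.3 and 69.7 CPM against 5.73 and 4.81 CPM (18 and 2 UMIs), and in the 1 day slices lower, at 62.5 and 100 CPM against 169 and 384 CPM. *Plac8* gave most of these UMIs, 40 over the 7 libraries. Lymphocyte, dendritic cell, astrocyte, neuron and endothelial lists stayed at or below 139 CPM, with *Ms4a1*, *Flt3*, *Aqp4*, *Snap25* and *Cldn5* at 0. They were higher in interferon-responsive cells in 2, 4, 3, 1 and 5 of 7 libraries. Other members of these lists were present, on few UMIs. *Cdh5* reached 34.9 CPM against at most 1.2 CPM in comparison cells (3 UMIs), and *Zbtb46* 18.1 against 2.71 CPM (4 UMIs). *Slc1a3* reached 139 against 153 CPM, and *Cd79b* 56.2 against 77.6 CPM. The part of these other transcripts in the results that follow was not tested beyond the alternatives that leave such cells out.

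For every gene, UMIs were summed over the interferon-responsive cells and over the comparison cells of each of the 7 libraries, and the difference within libraries was tested with edgeR's quasi-likelihood test over 8295 genes, the 5 rule genes left out. Called genes had a false discovery rate (FDR) below 0.05 and a fold change above 1.5. By this measure 233 genes (2.81% of those tested) were higher and 68 (0.82%) were lower in interferon-responsive cells, while the median log2 difference over all tested genes was -0.09. The number of lower genes rested on single libraries, with 42 without *in vitro* replicate 2 and 107 without adult replicate 1, whereas higher genes numbered 209 to 252 with any 1 library left out. DESeq2 called 205 higher and 10 lower. Comparison cells matched on total UMIs gave 122 higher and 11 lower with 1 matched cell for each interferon-responsive cell, and 189 higher and 22 lower with 5. The genes are taken in the order of their roles. For each list, the number tested is the number that passed the filter on low counts, and a gene silent in comparison cells could pass only through its level in interferon-responsive cells.

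**Figure D2:**
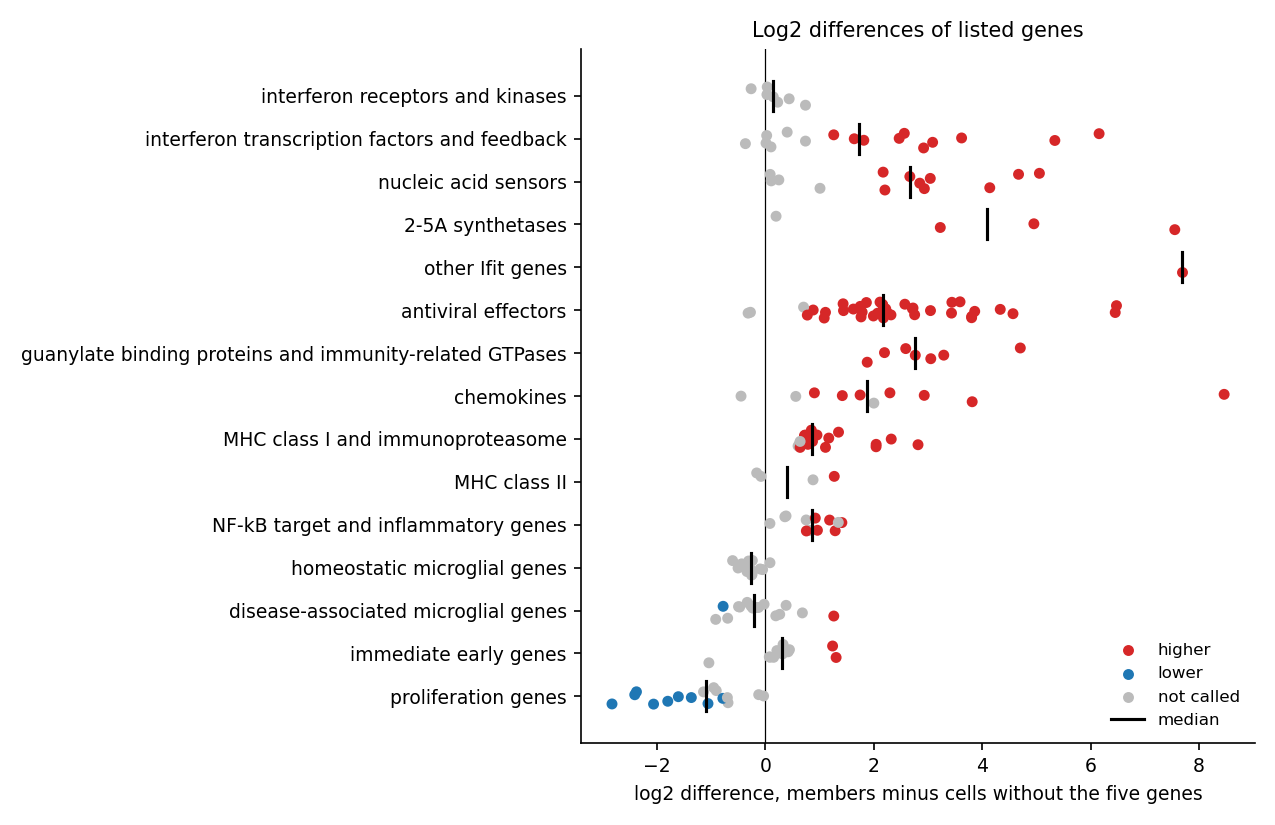
Log2 difference between interferon-responsive and comparison cells for the tested genes of 15 lists, from edgeR over 7 libraries, each point a gene (red called higher, blue called lower, grey not called) and each bar a list median. The medians of the antiviral effectors (2.17), the nucleic acid sensors (2.66) and the guanylate binding proteins (2.76) lie to the right, homeostatic genes (-0.27) near 0, and proliferation genes (-1.1) to the left.

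Interferon beta was almost absent from the libraries. Its gene *Ifnb1* had 2 UMIs in all 19059 cells, both in interferon-responsive cells, 1 in adult replicate 1 and 1 in slice 3 weeks replicate 2. It was the only 1 of 6 interferon ligands sought that had a row in the deposited counts, so the other ligands cannot be judged. None of 7 receptor and kinase genes was called in either direction, and their median log2 difference was 0.14. *Ifnar1*, a chain of the type I receptor, differed by 0.23 ± 0.17 on the log2 scale (SE, adjusted p = 0.62), and *Ifngr1*, the ligand-binding chain of the interferon gamma receptor, by -0.26 ± 0.15 (adjusted p = 0.504).

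Transcription factors and feedback genes of the pathway were higher, 10 of 16 tested. *Irf7*, the factor that amplifies type I interferon responses, ran from 249 to 652 CPM with a median of 445 CPM in the 7 sums of interferon-responsive cells, and from 3.56 to 15 CPM with a median of 10.9 CPM in comparison cells. The 2 classes did not overlap in any library, and the log2 difference was 5.34 ± 0.23 (SE, adjusted p = 8.8e-18). *Stat2* and *Irf9*, of the complex that binds the ISRE, differed by 2.92 ± 0.23 and 1.26 ± 0.18. *Usp18*, whose product blocks signalling at the type I receptor, showed the largest difference of the list, at 119 to 544 CPM against 2.23 to 6 CPM (log2 6.16 ± 0.23, adjusted p = 2.6e-19). *Socs1*, an inhibitor of the JAK kinases, was higher by 3.08 ± 0.41 but at no more than 46.9 CPM, and it had no UMI in the interferon-responsive cells of slice 1 day replicate 1. *Irf3*, *Irf5*, *Irf8* and *Stat3*, among the 6 genes of the list that were not called, lay between -0.37 and 0.10.

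Sensors of foreign nucleic acid followed, with 9 of 13 tested genes higher. *Zbp1*, a sensor of left-handed nucleic acid that can trigger cell death, was at 69.7 to 239 CPM against 0.465 to 12.3 CPM (log2 4.67 ± 0.3, adjusted p = 1.4e-13). The RNA sensors *Ddx58*, *Ifih1* and *Dhx58*, which encode RIG-I, MDA5 and LGP2, were higher by 2.93 ± 0.23, 2.85 ± 0.21 and 3.04 ± 0.19. The DNA-binding family around *Ifi204* was also higher, *Ifi204* itself at 494 to 771 CPM against 4.34 to 88.4 CPM (log2 4.14 ± 0.34) and *Pyhin1* at 104 to 383 CPM against 1.11 to 7.27 CPM (5.05 ± 0.29). *Mnda*, of the same family, differed by 5.26 ± 0.32. Genes of this family are similar in sequence, so counts could be split between them. *Tmem173* (STING), *Mavs* and *Tlr7*, the adaptors and the endosomal sensor upstream of interferon production, lay between 0.09 and 0.25 and were not called.

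The effectors made up the longest list, of which 35 of 38 tested genes were higher and none lower, with a median log2 difference of 2.17. *Cmpk2*, the neighbour of *Rsad2* in the genome, was at 31.2 to 177 CPM against 0.0531 to 2.12 CPM (log2 6.48 ± 0.32, adjusted p = 1.7e-16), and *Mx1*, a dynamin-like GTPase that blocks virus replication, at 31.3 to 127 CPM against 0.372 to 1.77 CPM (6.45 ± 0.31, adjusted p = 1e-16). *Rtp4* was at 435 to 1120 CPM against 7.11 to 75.7 CPM (4.33 ± 0.24). *Slfn5* and *Phf11b* differed by 4.57 ± 0.35 and 3.8 ± 0.23. Of the 2-5A synthetases, which sense double-stranded RNA, and their relatives, *Oasl1*, *Oasl2* and *Oas1a* were higher by 7.55 ± 0.39, 4.95 ± 0.32 and 3.23 ± 0.29. *Ifit3b*, at log2 7.69 ± 0.28, shares a stretch of 94 promoter bases letter for letter with the *Ifit3* stretch above and is a near copy of it, so its reads may not be told apart from those of a rule gene.

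*Bst2* and *Ifitm3*, effectors that were fixed by name, differed between groups in the comparison cells more than in interferon-responsive cells. *Ifitm3*, whose product blocks virus entry at endosomes, was at 1310 and 1670 CPM in adult interferon-responsive cells, 1830 and 1950 CPM *in vitro*, 1710 and 1520 CPM after 1 day in slices and 942 CPM in slice 3 weeks replicate 2. Comparison cells held 27.1 and 16.6 CPM in adult brain, 614 and 711 CPM *in vitro*, 296 and 225 CPM after 1 day and 23.9 CPM after 3 weeks. The interferon-responsive cells of the 7 libraries thus spanned 942 to 1950 CPM, while comparison cells spanned 16.6 to 711 CPM and were low in adult brain and the 3 week slices and high *in vitro*. The log2 difference over libraries was 3.43 ± 0.42 (adjusted p = 4.4e-07, but 0.13 with a spread estimated robustly to outlying genes). *Bst2*, which encodes tetherin, was at 767 to 1370 CPM against 156 to 681 CPM, and the highest comparison levels, 681 and 566 CPM, were again *in vitro* (log2 1.86 ± 0.21, adjusted p = 6.1e-08).

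**Figure D3:**
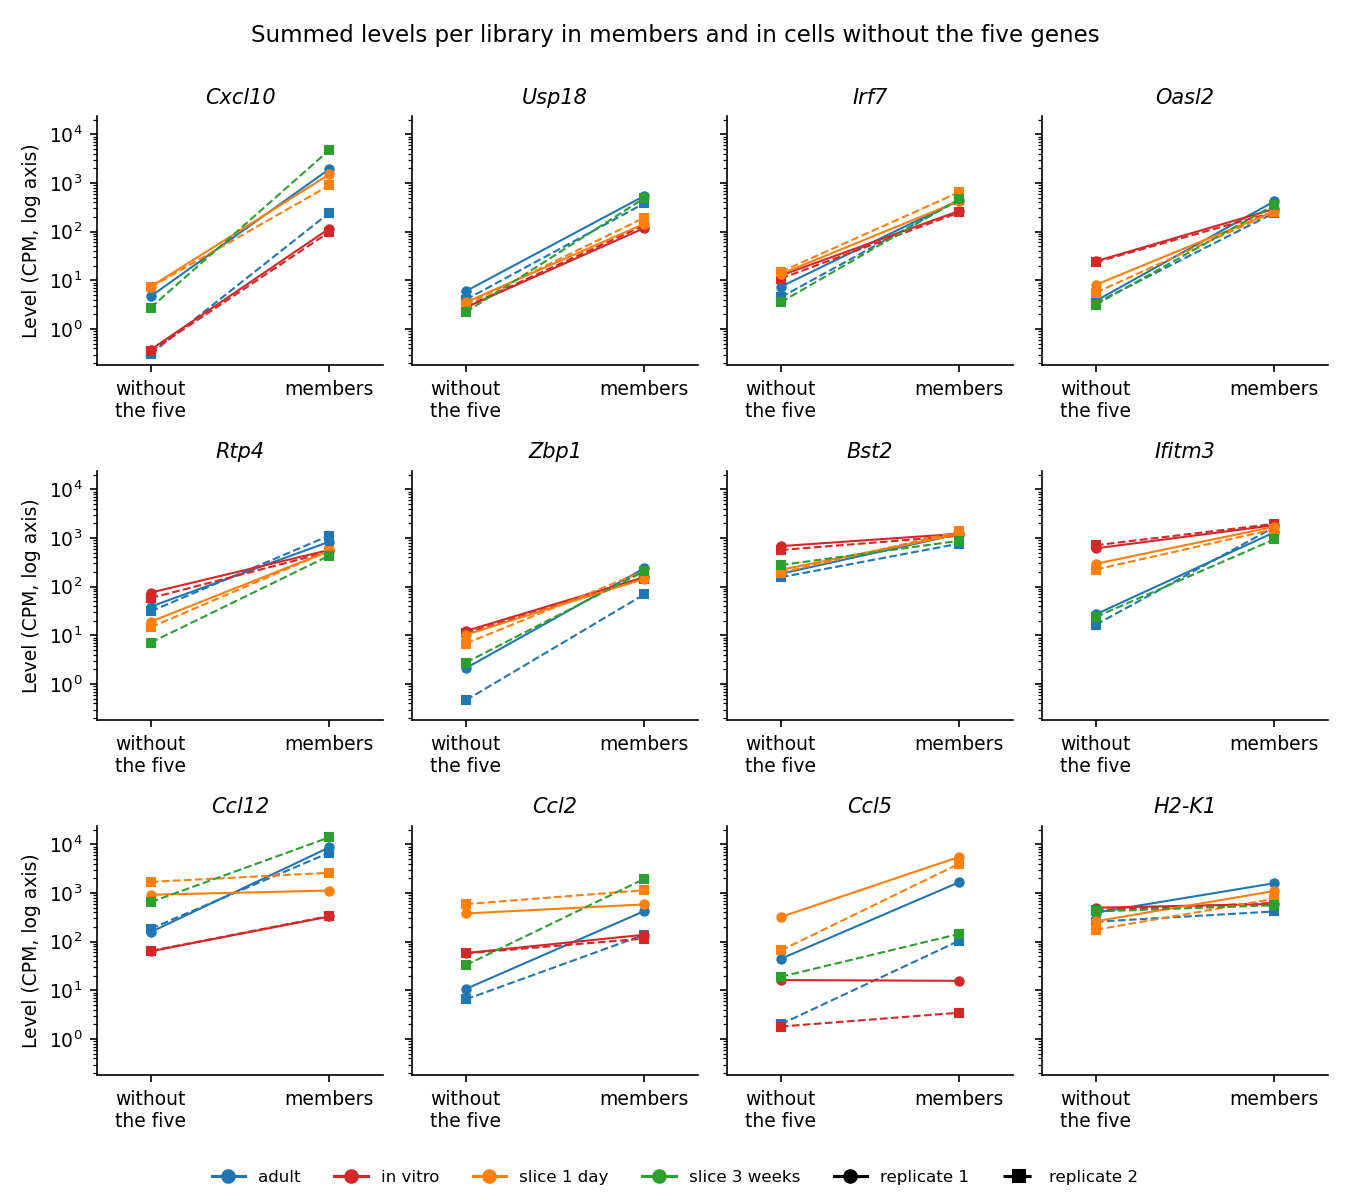
Summed level of 12 genes in comparison cells (left of each panel, labelled as without the rule genes) and in interferon-responsive cells (right, members), in CPM on a log axis, each line a library (colour for group, circle and solid line for replicate 1, square and dashed line for replicate 2). Lines climb in every library for *Cxcl10*, *Irf7* and *Zbp1*, start at different levels for *Ifitm3*, and are nearly flat *in vitro* for *Ccl5* and in the 1 day slices for *Ccl12*.

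The GTPases that act on membranes of intracellular pathogens were higher in 7 of 7 tested genes of 15 listed. *Gbp2* was at 26.7 to 268 CPM against 0.265 to 7.6 CPM (log2 4.7 ± 0.41, adjusted p = 1.8e-10), and *Irgm1* at 60.2 to 272 CPM against 6.35 to 35.5 CPM (3.05 ± 0.19). *Igtp* differed by 2.76 ± 0.21. Their summed level was 193 CPM in comparison cells, 231 CPM in the cells between and 1200 CPM in interferon-responsive cells of adult replicate 1, and 34.2, 51 and 626 CPM in slice 1 day replicate 2.

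**Figure D4:**
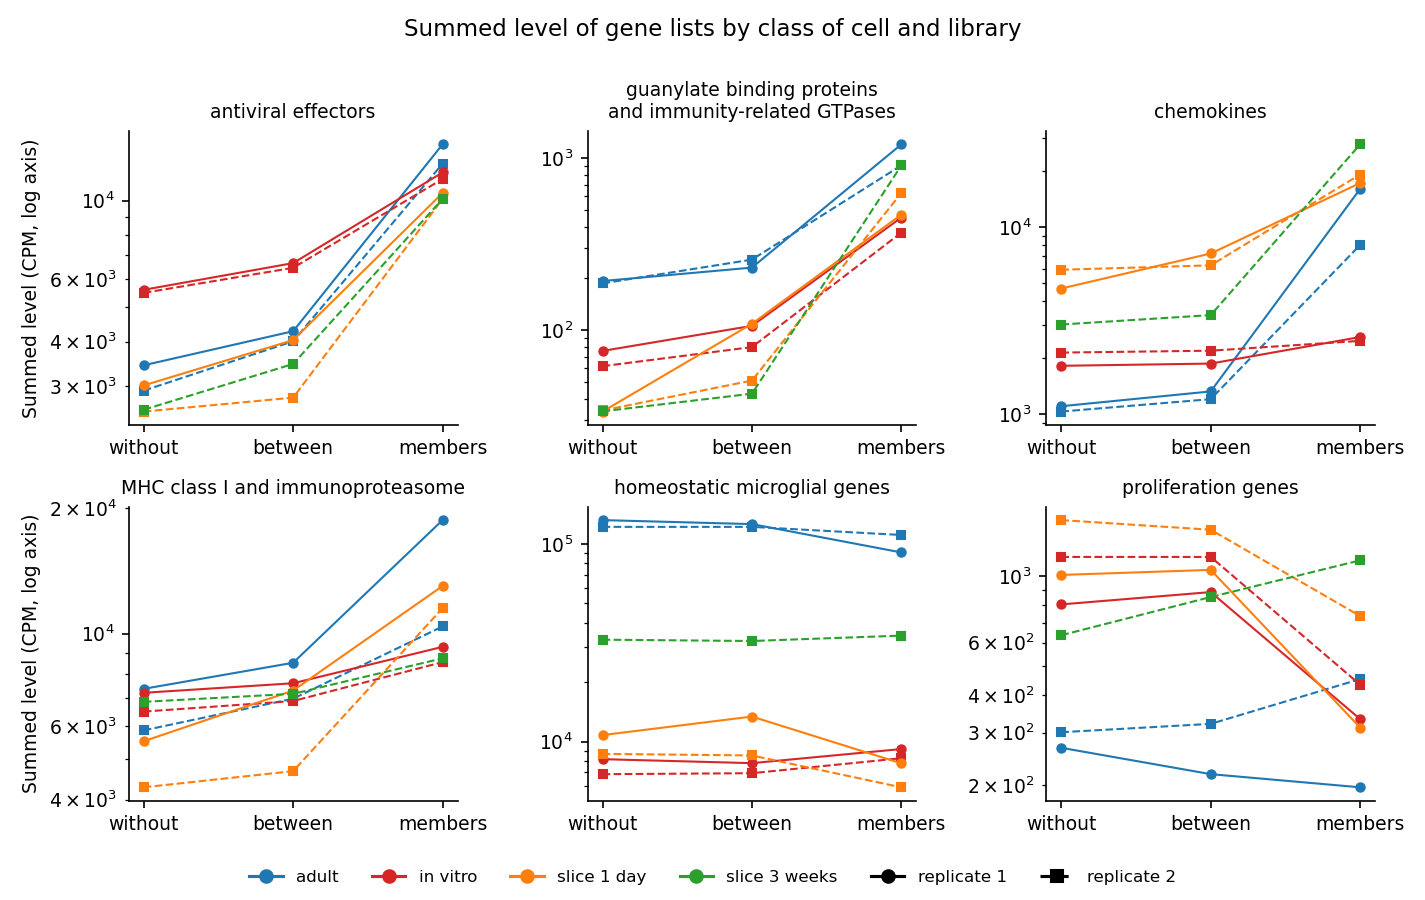
Summed level of 6 gene lists in comparison cells (without), cells between the 2 classes and interferon-responsive cells (members), in CPM on log axes whose ranges differ between panels, each line a library as in the legend. Antiviral effectors lie between 10100 and 14400 CPM in interferon-responsive cells of the 7 libraries against 2540 to 5600 CPM in comparison cells, and most of the step comes after the cells between.

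Chemokines were called higher in 7 of 10 tested genes and held the largest difference of all. *Cxcl10*, a ligand of CXCR3 that attracts T cells, was at 1930 and 244 CPM in adult interferon-responsive cells, 116 and 98.6 CPM *in vitro*, 1510 and 893 CPM after 1 day in slices and 4750 CPM in slice 3 weeks replicate 2. Comparison cells held 0.31 to 7.44 CPM, so no library came near overlap (log2 8.46 ± 0.34, adjusted p = 2.5e-18). A level over summed cells does not tell how many cells carried it. At 1800 UMIs per cell, *Cxcl10* was found in 15 of 47 interferon-responsive cells of adult replicate 1 (31.9%), 8 of 30 of slice 1 day replicate 2 (26.7%) and 8 of 18 of slice 3 weeks replicate 2 (44.4%). It was found in 1 of 41 and 5 of 66 *in vitro* (2.44% and 7.58%), in 1 of 14 of slice 1 day replicate 1 (7.14%), in 1 of 8 of adult replicate 2 (12.5%), and in at most 1.37% of comparison cells of any library.

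*Ccl12* and *Ccl2* encode ligands of the monocyte receptor CCR2. Adult interferon-responsive cells held *Ccl12* at 8650 and 6730 CPM against 158 and 185 CPM in comparison cells, and slice 3 weeks replicate 2 held 13900 CPM against 651 CPM. After 1 day in slices the values were 1120 and 2600 CPM against 920 and 1690 CPM, and *in vitro* 329 and 338 CPM against 63.6 and 64.6 CPM. Comparison cells were highest in the 1 day slices, whereas interferon-responsive cells were higher in adult brain and the 3 week slice library than in 1 day slices and *in vitro*. Over the 7 libraries the log2 difference was 2.93 ± 0.47 for *Ccl12* (adjusted p = 5.4e-05) and 2.3 ± 0.48 for *Ccl2* (adjusted p = 0.002). *Ccl5*, which attracts T cells and monocytes, reached 5530 and 4010 CPM after 1 day and 1670 and 105 CPM in adult brain, but only 15.7 and 3.48 CPM *in vitro*, where comparison cells had 16.3 and 1.81 CPM (log2 3.81 ± 0.47 over all, higher in 6 of 7 libraries). With the robust spread 1 of the 10 chemokines was called, and the adjusted p was 0.27 for *Ccl12*, 0.43 for *Ccl2* and 0.12 for *Ccl5*. DESeq2 called 4.

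Genes of MHC class I, which displays peptides from inside the cell, were higher in 15 of 18 tested, with a smaller median of 0.86. The count was 4 of 15 with cells thinned to 1800 UMIs and 7 of 19 without cells with other markers, where medians were 0.62 and 0.86. *Tap1*, a subunit of the peptide transporter, was at 86.2 to 225 CPM against 21.4 to 40.3 CPM (log2 2.32 ± 0.16, adjusted p = 8e-13), and the classical heavy chain *H2-K1* at 418 to 1590 CPM against 176 to 498 CPM (1.11 ± 0.21, adjusted p = 0.00072, but 0.15 with the robust spread). The nonclassical *H2-Q7* and *H2-T22* differed by 2.82 ± 0.41 and 2.04 ± 0.21, with the reservation that heavy chain genes share sequence. *H2-Q7* was not called with the robust spread (adjusted p = 0.14), and *in vitro* it was at 5.88 and 4.64 CPM against 4.3 and 4.13 CPM. The immunoproteasome subunits *Psmb8*, *Psmb9* and *Psmb10* were higher by 0.78 ± 0.14, 1.17 ± 0.15 and 0.73 ± 0.15. *B2m*, the light chain, whose promoter stretch is shown above, was higher in each of 7 libraries, at 4100 to 9550 CPM against 2340 to 4600 CPM, but missed the threshold (0.64 ± 0.19, adjusted p = 0.057), which it passed in 7 of 23 alternatives (lowest adjusted p = 0.0059). Among 4 tested class II genes, *Cd74*, the invariant chain, was called (1.27 ± 0.29, adjusted p = 0.0052), but neither the robust spread (adjusted p = 0.43) nor DESeq2 (0.79, adjusted p = 0.8) called it or any class II gene. Its largest levels were 1550 CPM in slice 1 day replicate 1 and 890 CPM in adult replicate 1, and it was below comparison cells in 2 libraries.

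Among inflammatory genes outside the pathway, of 12 tested NF-kB targets 6 were higher, with a median of 0.87. *Nfkbia*, the inhibitor induced by NF-kB, was at 161 to 607 CPM against 93.5 to 211 CPM and higher in all 7 libraries (1.18 ± 0.16, adjusted p = 1.9e-06). *Tnf* and *Il1b* were higher by 1.41 ± 0.37 and 1.29 ± 0.27, in 6 and 5 of 7 libraries, at levels of at most 104 and 211 CPM. *Tnf* lost its call in 8 of 22 alternatives, among them those without adult replicate 2 (1.33, adjusted p = 0.084) and without slice 3 weeks replicate 2 (1.3, adjusted p = 0.071), and *Il1b* without slice 1 day replicate 2 (0.78, adjusted p = 0.23). The list fell to 2 of 9 with thinned cells and 3 of 14 in libraries with at least 25 such cells. Of 11 tested immediate early genes, which respond to handling of cells as well as to signals, *Fos* (1.3 ± 0.29) and *Dusp1* (1.24 ± 0.34) were called, in 5 and 4 of 7 libraries, and *Dusp1* had no UMI in interferon-responsive cells of either adult library or of *in vitro* replicate 2. Without *in vitro* replicate 1 neither was called (*Fos* 0.67, adjusted p = 0.22, and *Dusp1* 0.74, adjusted p = 0.46).

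None of 15 homeostatic microglial genes was called in either direction, and 14 of the 15 fitted differences were below 0. Taken group by group, in the fit described further on, 2 were lower in adult brain, 4 were lower in 1 day slices and 1 was higher *in vitro*. Over all genes of that fit 0.278%, 4.48% and 2.51% were so called. Its p-values are too small for genes with a larger spread of their own. *P2ry12*, the ADP receptor of resting microglia, was at 3530 and 6100 CPM in adult interferon-responsive cells against 7250 and 8490 CPM, and at 1230 CPM against 795 CPM in slice 3 weeks replicate 2. In cultures and 1 day slices it was at 154 CPM or less in both classes. Its log2 difference was -0.27 ± 0.22 (adjusted p = 0.67) and that of *Tmem119* 0.08 ± 0.19 (0.92). The 15 genes together took 90600 CPM in adult replicate 1 against 132000 CPM in comparison cells, and 111000 CPM against 122000 CPM in adult replicate 2. Of 16 disease-associated genes, *Axl*, a receptor for apoptotic cells, was higher (1.26 ± 0.33, adjusted p = 0.018) and the fatty acid binding protein *Fabp5* lower (-0.78 ± 0.21, adjusted p = 0.025). Neither call was stable. *Axl* lost it in 6 of 22 alternatives, including without adult replicate 2 (adjusted p = 0.094), and *Fabp5* in 10 of 23, including without adult replicate 2, slice 1 day replicate 1 (-0.51, adjusted p = 0.27) or slice 3 weeks replicate 2 (adjusted p = 0.13).

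The lower genes were led by genes of the cell cycle. Of 16 tested proliferation genes 9 were lower and none higher, with a median of -1.1. *Ccnb1*, the mitotic cyclin, was at 0 to 10 CPM in interferon-responsive cells against 2.77 to 43.9 CPM (log2 -2.83 ± 0.37, adjusted p = 1.7e-06), and *Ube2c*, of the mitotic ubiquitin ligase, at 0 to 20.1 CPM against 2.48 to 78.4 CPM (-2.38 ± 0.29, adjusted p = 3.5e-07). Both rest on few transcripts, since *Ccnb1* had 0 UMIs in 4 of the 7 sums of interferon-responsive cells. The replication genes *Pcna* and *Mcm6*, at -0.03 and -0.12, were not called. The summed list was lower in 5 of 7 libraries, for example 434 CPM against 1160 CPM in *in vitro* replicate 2, and higher in adult replicate 2 (453 against 301 CPM) and slice 3 weeks replicate 2 (1130 against 635 CPM). Without cells that carried markers of other types, which left only 3 libraries, the list median was 0.65 with no call, and DESeq2 called 2 of 16.

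The share of cells with proliferation transcripts was tested over libraries. It is no count of dividing cells, since at the same depth *Mki67* was found in 2.12% of the comparison cells of slice 1 day replicate 2. At 1800 UMIs per cell, 15.8% of interferon-responsive cells and 24.9% of comparison cells had at least 2 UMIs of proliferation genes, a mean difference of -9.14 ± 10.6 percentage points (SD, n = 6 libraries). It was lower in 5 of 6 libraries, but did not pass a two-sided exact permutation test with sign flips (p = 0.0938, adjusted p = 0.281 over 3 measures, smallest possible p 0.0312). Slice 1 day replicate 2 had 30% against 49.7%, and slice 3 weeks replicate 2 the opposite, 22.2% against 14.6%. Genes detected at equal depth were 906 and 898 per cell (difference 8.7 ± 33.5, exact p = 0.5), and the mitochondrial share was 1.52% and 1.6% (difference -0.0761 ± 0.269 percentage points, n = 7, exact p = 0.562).

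Among the other lower genes, the direction often differed between libraries. *Ttr*, the transthyretin of choroid plexus, was at 136 CPM against 560 CPM in adult replicate 1 and 18.1 CPM against 327 CPM in slice 3 weeks replicate 2, with no UMI in either class of adult replicate 2 and *in vitro* replicate 1 (log2 -2.07 ± 0.36), and under DESeq2 its difference turned to 2.0. *Saa3* (-1.8 ± 0.45) was at 10.4 CPM against 426 CPM in slice 1 day replicate 1 and within 10 CPM of comparison cells in both adult libraries. *S100a4*, *S100a6* and *Fn1* were lower by 1.57, 1.51 and 1.25 on the log2 scale, with *Fn1* higher in slice 1 day replicate 1 (521 against 348 CPM). Without slice 1 day replicate 1 *Saa3* was not called (-0.94, adjusted p = 0.33), and *S100a4*, *S100a6* and *Fn1* were not called by DESeq2. *S100a6* lost its call in 8 of 20 alternatives, including without adult replicate 2 (adjusted p = 0.055), and *Fn1* in 7 of 22, including without slice 1 day replicate 2 (adjusted p = 0.062).

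Genes called higher held the ISRE more often than the background. Of the 233 genes, 183 matched the promoter table, and 45 of these (24.6%) held an ISRE match in the window, against 257 of 6455 tested genes in the table (3.98%). A GAS match was found in 23 of the 183 (12.6%), against 525 of 6455 (8.13%). Of the called lower genes, 4 of 50 in the table (8%) had an ISRE match. No match stood in the windows of *Irf7*, *Oasl2*, *Oasl1* and *Ccl12*, which were among the higher genes. These are counts of letters, and no test was made of them.

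For each group it was asked how much of a gene's expression lay in these few cells. Interferon-responsive cells carried 1.26% of all UMIs in adult brain, 1.86% *in vitro*, 2.99% after 1 day and 0.503% after 3 weeks. They held 84.6%, 87.8%, 75.5% and 75.5% of the *Cxcl10* UMIs of these groups. For *Usp18* the shares were 49.6%, 24.4%, 53.7% and 34.4%, and for *Irf7* 43.4%, 17.9%, 43.2% and 22.8%. For *Bst2* the values were 7.56%, 3.05%, 14.7% and 1.51%. *Ccl12* was held to 37.3% in adult brain but to 8%, 4.4% and 7.61% in the other groups. The 3 week value of *Cxcl10* rests on replicate 2, with 525 UMIs in interferon-responsive cells against 52 in comparison cells, whereas replicate 1 had 50 against 97. The adult values lean on replicate 1. There interferon-responsive cells had 1846 UMIs of *Ccl12* against 1710 in comparison cells, and in replicate 2 they had 193 against 1190. For *Bst2* it was 259 against 1994 and 22 against 1008 UMIs, and for *Usp18* 116 against 65 and 11 against 26. Over the listed interferon genes with at least 50 UMIs in a group, the median share held was 5.99% for 77 genes in adult brain, 6.03% for 88 *in vitro*, 13.7% for 75 after 1 day and 3.27% for 73 after 3 weeks.

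**Figure D5:**
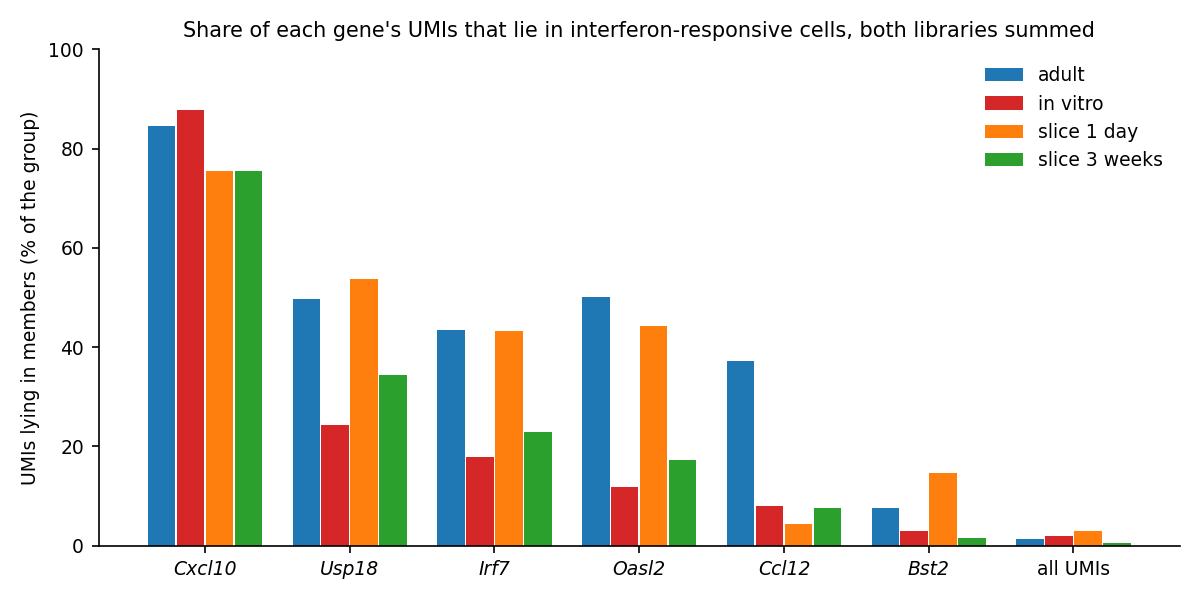
Share of the UMIs of 6 genes, and of all UMIs, that lay in interferon-responsive cells, in percent of the group with both libraries summed and bars from 0. *Cxcl10* exceeds 75% in all 4 groups with libraries summed, though not in slice 3 weeks replicate 1 alone (50 UMIs against 97 in comparison cells), *Usp18*, *Irf7* and *Oasl2* are lower *in vitro* than in adult brain and 1 day slices, and *Bst2* stays below 15%.

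Whether the difference between the 2 classes itself differed between groups was tested as an interaction in the 3 groups with at least 10 interferon-responsive cells in both libraries, over 8276 genes. The slices after 3 weeks, with 6 such cells in replicate 1, and after 1 week were left out. Between *in vitro* and adult cells 88 genes (1.06%) differed, 72 of them with a smaller or more negative difference *in vitro*. Between 1 day slices and adult cells it was 146 genes (1.76%), 120 of them lower in slices, and between *in vitro* and 1 day slices 216 (2.61%). The first 2 comparisons share the adult libraries. This fit found no spread of individual genes beyond the shared trend and so gave every gene that trend, which makes its p-values too small for genes with a larger spread of their own.

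In the same fit, each group alone gave calls over its 2 libraries, in adult brain 190 genes higher (2.3%) and 23 lower (0.278%), *in vitro* 208 (2.51%) and 82 (0.991%), and in 1 day slices 315 (3.81%) and 371 (4.48%). Of 38 antiviral effectors 33, 33 and 32 were higher in these groups, and 1 was lower in 1 day slices. Of 18 genes of MHC class I and the immunoproteasome 13, 8 and 16 were higher, and of 11 chemokines 8, 3 and 8.

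*Ifitm3* and *Ccl12* carried these differences most plainly, as their levels above show. The interferon-responsive excess of *Ifitm3* was smaller *in vitro* than in adult brain by 4.49 ± 0.32 on the log2 scale (adjusted p = 1.2e-39) and smaller in 1 day slices by 3.55 ± 0.33 (adjusted p = 7.6e-24). For *Ccl12* the values were -3.08 ± 0.33 and -5.17 ± 0.34. *Ifi204* differed by -4.07 ± 0.3 and -2.97 ± 0.31, and its comparison cells held 4.34 to 6.74 CPM in adult brain against 41.1 to 88.4 CPM in the other 4 libraries. Of the antiviral effectors 11 of 38 had a smaller difference *in vitro* than in adult brain and none a larger one, and of 11 chemokines 7 had a smaller difference *in vitro* and 7 in 1 day slices.

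Adult replicate 1 bears much of this. Without it, which also left only libraries of the same study label, 11 genes differed between *in vitro* and adult cells and 10 between 1 day slices and adult cells, of which 11 and 9 had been called with it. *Ccl12*, *Ifitm3*, *Ifi204*, *Slfn2*, *Apoe*, *AI607873*, *Tmcc3* and *Ccl7* were called in both of these comparisons with and without it, whereas *Ccl2* lost both calls (-2.98, adjusted p = 0.55, and -3.45, adjusted p = 0.34). Other libraries moved the counts too. The first comparison gave 37 and 33 genes without *in vitro* replicates 1 and 2, the second gave 34 and 35 without these and 230 without adult replicate 2, and the third gave 24 with either *in vitro* library left out. Without adult replicate 1, the adult arm had a single library of 14 interferon-responsive cells, which was assumed to vary like the others. *Cxcl10*, whose levels of 1930 and 244 CPM in the adult libraries lay far apart, missed the threshold for a difference in excess between *in vitro* and adult cells (-0.79 ± 0.59, adjusted p = 0.85) and had a smaller excess in 1 day slices than in adult cells (-1.86 ± 0.37, adjusted p = 1e-04). That call was lost in 6 of 12 alternatives, among them those without adult replicate 1 (-2.13, adjusted p = 0.88), either *in vitro* replicate (adjusted p = 0.25 and 0.22) or slice 1 day replicate 2.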

How the data were processed

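Single cells of 10 libraries were captured by droplets and sequenced from the 3' end. The authors deposited a table of UMI counts per gene and cell for each library, made with Cell Ranger 1.3.0 on build mm10 per the submitters' processing notes, with no further normalization. Rows that repeat a gene symbol in a library, 70 in all, were summed. Cells with at most 5% mitochondrial UMIs, at least 400 genes and at most 30000 UMIs were kept, 19059 of 19637, and 4 of the 578 removed barcodes also met the rule on the 5 genes. The labels aim at about 1000 cells per library, whereas the tables held 68 to 3834 barcodes, and for the 1 week slices the study states fewer cells than the tables hold. No doublet caller was run, and leaving out cells above 2 times the median UMIs of their library was an alternative. Replicates are not stated to come from separate animals, so p-values measure the spread between libraries, which may in part be technical.

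Counts were summed per library and class and tested in R 4.3.3 with edgeR 4.0.16 (limma 3.58.1), using TMM factors, filterByExpr with a minimum count of 10 and a quasi-likelihood fit with the library as a block. A gene was called at a Benjamini-Hochberg FDR below 0.05 and a fold change above 1.5. Libraries with fewer than 10 interferon-responsive cells were left out. The biological coefficient of variation was 18.3% and the prior degrees of freedom 24.7. Both classes come from the same library, which is what pairs them, and replicate numbers were not used to pair libraries across groups, since nothing in the labels ties equal numbers to a shared animal or day. Single measures were tested with exact two-sided sign flips over libraries. DESeq2 1.42.0 was an alternative, as were other size factors, count filters, rule thresholds, matched or thinned comparison cells, cells without other markers and each library left out. Sums, exact tests and plots used numpy 2.4.6, matplotlib 3.10.9, pandas 2.3.3 and scipy 1.17.1 under Python 3.11.15. On simulated counts of 8054 genes for the comparison of the 2 classes, 92% of 2-fold and 100% of 4-fold rises and 88% of falls to 0.5-fold were recovered, with 7 false calls. These figures describe the simulated counts only. They were not broken down by expression level or by the spread of single genes. They therefore give no rate of recovery or of false calls for the genes reported here, least of all for weakly expressed genes.

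The cells and the gene lists were chosen with earlier results of these data known. Named genes were the 15 rises and 10 falls largest in size whose mean log2 CPM was 5 or more, up to 4 called genes of each list, 13 genes fixed by name (some of which are not reported here), and up to 5 genes of each group difference. Listed pathway genes that were not called, partners and family members of named genes, and *Slfn2*, *Apoe* and *Tmcc3* were added after their values were seen.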

Additional observations from a re-analysis of the deposited data

Results flagged for a closer look

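The difference between interferon-responsive and comparison cells itself differed between groups, by the interaction test, for the genes below, named by size, given here as log2 differences of differences. The test gave every gene the shared trend in spread, so its p-values are too small for genes with a larger spread of their own.

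Among chemokines, *Ccl5* had a smaller excess *in vitro* than in adult brain (-5.26) and than in 1 day slices (-4.64), the first not past the threshold without adult replicate 1 (-5.18, adjusted p = 0.34) and the second not without *in vitro* replicate 1 (-3.93, adjusted p = 0.052). *Ccl7*, a ligand of CCR2 like *Ccl12*, differed by -7.71 *in vitro* and by -8.06 in 1 day slices against adult brain. Its adult levels were 305 and 105 CPM in interferon-responsive cells against 1.39 and 0.155 CPM, while 1 day slices had 20.8 and 171 CPM against 104 and 121 CPM. *Cxcl2*, a neutrophil attractant, differed by -5.96 between *in vitro* and 1 day slices, with 281 and 1000 CPM in the interferon-responsive cells of the slices against 28 and 38.9 CPM, and 3 UMIs in all in those *in vitro*. *Mmp12*, the macrophage elastase, differed by -6.26 in the same comparison, with 1170 and 2320 CPM in the slices against 836 and 551 CPM. *In vitro* its interferon-responsive cells had 4 UMIs in all (0 and 4.64 CPM), against 55.8 and 123 CPM in comparison cells.

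*AI607873*, of the *Ifi204* family, differed by -5.89 *in vitro* and -5.81 in 1 day slices against adult brain, and neither was called with comparison cells matched on UMIs (adjusted p = 0.23 and 0.14). Its adult comparison cells were at 0.924 and 0.155 CPM, and those of the other 4 libraries at 48 to 97.6 CPM. *Ifi203*, of the same family, differed by -6.5 and -7.02, but it had 6 UMIs in adult interferon-responsive cells, all in replicate 1, and none in adult comparison cells, so the fitted sizes are no bound. *S100a6* differed by -8.55 and -6.94 on 2 UMIs in adult interferon-responsive cells and 1 in adult comparison cells, and its calls were lost in 4 and 8 of 12 alternatives, both of them without adult replicate 1 (-2.19 and -0.57). *Actn1*, an actin crosslinker, differed by 10.28 between 1 day slices and adult brain, where adult interferon-responsive cells had no UMI against 30.9 and 30.6 CPM in comparison cells. *Ramp1*, part of the CGRP receptor, differed by 9.67 between *in vitro* and 1 day slices, where the interferon-responsive cells of the slices had no UMI. *Actn1* lost its call in 8 of 12 alternatives, including each library left out except adult replicate 2 (adjusted p up to 0.88), and *Ramp1* without any 1 of the *in vitro* and 1 day libraries (adjusted p up to 0.34). These sizes rest on counts of 0 and are no bound either. *Ifitm6* differed by 4.19 in the same comparison, at 90.8 and 346 CPM in comparison cells of the slices, and by 1.64 (adjusted p = 0.14) without cells rich in neutrophil markers.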

How the results depend on the processing

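For 67 named genes, 1311 of 1453 values under the alternatives kept their direction and side of the threshold, 103 lost the call, 16 gained it and 23 turned. For 30 group differences it was 271 of 344, with 71 lost and 2 turned. The 233 higher genes became 122 with comparison cells matched on UMIs, 103 with cells thinned to 1800 UMIs and 145 without cells with other markers, which left 3 libraries, and 209 to 252 with 1 library left out. The matched and thinned settings tested fewer genes, 2728 and 4839. The 68 lower genes became 174 with no count filter, 11 matched, 22 with 5 matched cells (chosen after seeing the data), 19 thinned, 18 without cells with other markers, 10 with DESeq2, and 42 to 107 with 1 library left out. With no replicate block, that is without the library pairing, 230 were higher and 46 lower.

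Genes that differed between *in vitro* and adult cells became 19 matched, 53 with 5 matched cells and 11 to 117 with 1 library left out. For 1 day slices and adult cells they became 76 at a minimum count of 5, 46 matched and 10 to 230, and for *in vitro* and 1 day slices 21 matched and 24 to 317. With 1 library left out, *Ifi203* ran from -7.19 to 3.08 *in vitro* and from -15.39 to 2.55 in 1 day slices against adult brain, turning without adult replicate 1. Slice 3 weeks, with 1 library of at least 10 such cells, was not fitted against other groups, and *in vitro* against 1 day slices was chosen after seeing the data, as were the robust spread, the neutrophil-rich cells and the libraries of 5 or more.

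The adult share became 0.482% under the stricter and 1.49% under the looser rule. The *in vitro* share became 0.89% under the stricter rule, 5.54% under the looser rule and 0.635% without cells with other markers, where 1 interferon-responsive cell was left in replicate 1 and 0 in replicate 2. The 1 day share became 2.2% thinned, 1.81%, 3.95% and 1.94%, the last from 2 such cells of 1 library, and the 3 week share 0.438% thinned, 0.233%, 1.47% and 0.453%, with 0.534% over all barcodes. With 1 library left out, shares ran from 0.397 to 1.32% in adult brain, 1.7 to 2.46% *in vitro*, 2.7 to 2.96% after 1 day and 0.481 to 0.52% after 3 weeks. The mitochondrial difference turned to 0.0554 percentage points when matched.

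Of single genes, *Ttr* turned to 2.0 under DESeq2, and *Birc5* to 0.59 and *Dusp1* to -0.55 without cells with other markers. Genes not called that turned were *Tmem119*, at -0.07 with no count filter, -0.19 under the stricter rule, -0.1 thinned, -0.18 without cells with other markers, -0.06 with libraries of 5 or more such cells, and -0.05 to 0.2 with 1 library left out. *Ramp1* turned to 0.14 with libraries of 25 or more. *Mmp12* turned to 0.07 with other size factors, 0.08 with no replicate block, 0.42 under the stricter and 0.21 under the looser rule, 0.6 thinned, 0.19 with 5 matched cells, 0.14 under DESeq2, and ran from -0.66 to 0.66 with 1 library left out. *Ifitm6* ran from -1.64 to 0.38 with 1 library left out and turned to 0.57 without neutrophil-rich cells and 1.89 under DESeq2. The cause of these changes was not tested. Depth limits the rest: 14 interferon-responsive cells in adult replicate 2 and in slice 1 day replicate 1 leave many genes at 0.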
